A study of Mus musculus with 2 samples.

Results

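The nuclear factors of activated T cells (NFAT) and calcineurin, the phosphatase that switches most of them on, were read from 35 probe sets of 9 genes: Nfatc1, Nfatc2, Nfatc3, Nfatc4, Nfat5, Ppp3ca, Ppp3cb, Ppp3r1 and Rcan1. A probe set was taken when the platform annotation gave it a single gene symbol equal to one of these names, out of 34945 such probe sets for 18193 genes. The study grew marrow cells of C57/Black6 mice aged 8 weeks in the cytokine M-CSF for 3 days and took the adherent cells as progenitors. One culture then stayed in M-CSF alone and became macrophages, and the other received M-CSF together with RANKL, the cytokine that drives osteoclast formation; each is labelled as 6 days of culture and was hybridised to 1 Affymetrix array. The labels do not say whether the cultures shared an animal, but sex-linked genes, given below, read as female in macrophages and male in osteoclasts. The study's culture gave bulk RNA, in which fewer cells of a type and less RNA per cell cannot be told apart.

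Calcineurin is made of a catalytic A subunit, here Ppp3ca or Ppp3cb, and the calcium-binding B subunit Ppp3r1. When cytosolic calcium rises, calmodulin activates the enzyme, which strips phosphates from NFATc1 to NFATc4 and so lets them enter the nucleus, where they bind DNA beside partners such as AP-1. Nfat5 encodes a relative that lacks the calcineurin docking region and is known for the response to salt stress, while Rcan1 encodes a protein that binds and restrains calcineurin and is itself an NFAT target in many cells. In osteoclast precursors, RANKL together with calcium oscillations leads NFATc1 to raise its own gene, and NFATc1 is the master factor of osteoclast differentiation.

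Values are deposited intensities. A signal counted as measured at or above a floor, the 40th percentile of each array, which was 17.0 in macrophages and 14.4 in osteoclasts. A more cautious background level was 28.2 and 25.7, the 95th percentile of 80 probe sets for olfactory or vomeronasal receptors. An "at least" before the fold of a single gene or probe set means that the dimmer signal was set to that level. Counts of genes or probe sets past 2-fold use the floor. Taken over all probe sets measured in both arrays, the median log2 difference was -0.43, so most of them were dimmer in the osteoclast array. Log2 differences and folds below, those with "at least" included, are osteoclast against macrophage relative to this shift unless called deposited. Neither group has a second array, so no test was run and no p-value is given. The error at hand is how far probe sets of one gene disagree, an SD of 0.49 over 14641 probe sets of 5435 genes. It was 0.56 for genes with a mean signal under 100 and 0.46 for brighter ones, and it holds nothing of the variation among animals or cultures. The labels were checked against markers. All 8 osteoclast markers were at least 2-fold higher in the osteoclast array (summed intensity 838 against 34955). Of 9 measured macrophage markers, 6 were 2-fold lower at the floor (summed intensity 35101 against 15052). Among these, Cd163 (50.1 and 1.71) passed only at the floor and was at least 1.44-fold lower. The X-inactivation RNA Xist gave 1872 in macrophages and 22.1 in osteoclasts. The Y-linked genes Eif2s3y, Uty and Kdm5d gave 321, 72.7 and 63.5 in osteoclasts and were below the floor in macrophages. The macrophage array thus reads as female and the osteoclast array as male, so sex and animal differ together with cell type. Their part in any difference cannot be told apart from cell type and was not tested.

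Among the 9 genes, Nfatc1 and Nfat5 were at least 2-fold higher in osteoclasts, none was 2-fold lower, and 7 differed by less. Each gene is summarised here by its brightest probe set over both arrays. Beside this, 7.11% of the 13647 measured genes passed 2-fold upward and 6.99% passed it downward. On deposited values the counts were 2 higher (Nfatc1 and Nfat5) and 1 lower (Nfatc2), against 3.0% and 17.5% of all genes. Over single probe sets, 9 of the 28 measured in at least 1 array were 2-fold higher and none lower, beside 7.97% and 7.48% of all probe sets with 1 symbol. Those 9 belong to Nfatc1, Nfat5 and Nfatc4 only, so they are not independent readings. Deposited values gave 6 higher and 2 lower, beside 3.35% and 18.4%. Of those 28, 23 were measured in both arrays, 4 in osteoclasts only and 1 in macrophages only, and the remaining 7 were below the floor in both. The median of the 9 genes was -0.04, beside 0.00 over all measured genes.

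**Figure D1:**
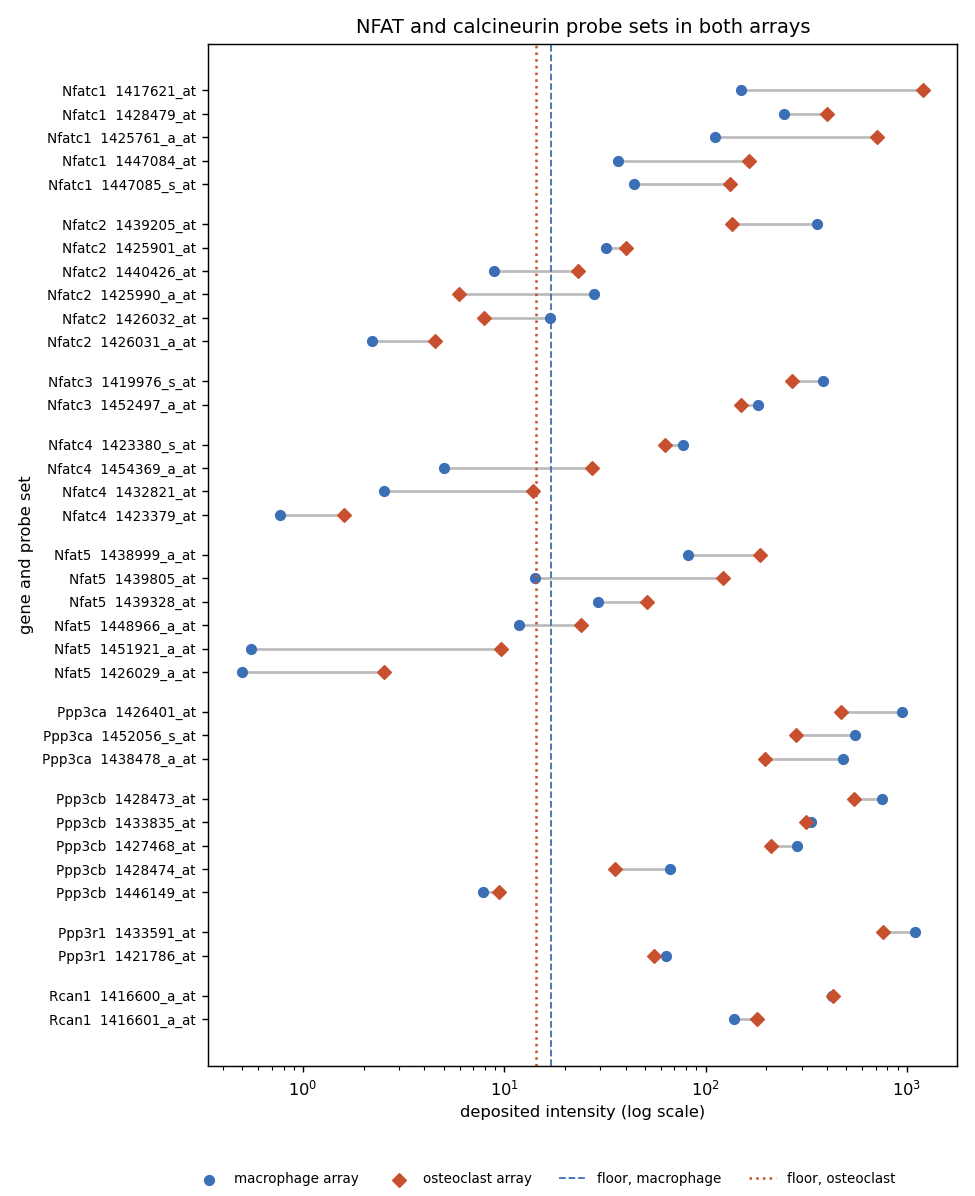
Deposited intensity (log axis) of each of the 35 probe sets in the macrophage array (circles) and the osteoclast array (diamonds), with the floors of 17.0 and 14.4 as vertical lines. All 5 Nfatc1 probe sets are brighter in osteoclasts and all 3 Ppp3ca probe sets are brighter in macrophages.

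Nfatc1 was higher in the osteoclast array at every probe set. The brightest, 1417621_at, gave 150 in macrophages and 1207 in osteoclasts, a log2 difference of 3.44 (10.9-fold). Probe set 1425761_a_at gave 111 and 713 (3.12). Probe sets 1447084_at and 1447085_s_at, which the annotation draws from the same source sequence, gave 36.9 and 164 (2.59) and 44.3 and 132 (2.01). The smallest difference was at 1428479_at, with 246 and 403 (1.14). All 5 probe sets were thus 2-fold higher relative to the shift, but their SD of 0.91 was larger than the usual 0.49, so the size of the difference depends on the probe set while its direction does not. As deposited, 1428479_at differed by 0.71, under 2-fold. Nfatc1 ranked 44th from the highest among the 13647 measured genes.

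Nfatc2, the NFAT factor best known from T lymphocytes, did not give 1 direction. Its brightest probe set, 1439205_at, gave 359 in macrophages and 136 in osteoclasts, a difference of -0.97, just short of 2-fold relative to the shift and past it as deposited (-1.40). Probe set 1425901_at gave 31.8 and 40.2 (0.77). The dim probe set 1425990_a_at was above the floor in macrophages only (28.0 against 5.94), and 1440426_at in osteoclasts only (8.90 against 23.2). Both lay under the receptor background level, as did the other two, which were below the floor in both arrays. The median over the 4 measured probe sets was 0.12, of the opposite sign to the brightest one, and takes in these dim signals. Of the T cell markers, Cd3d, Cd3e, Cd3g, Cd2 and Cd4 were below the floor in both arrays. Cd28, a T cell costimulatory receptor, gave 284 and 54.8 (-1.94) and at its other probe set 191 and 31.1 (-2.19). Of 8 T cell markers with a probe set 3 were measured, 1 higher (Cd5, at least 2.15-fold) and 1 lower, and their summed intensity was 373 in macrophages and 149 in osteoclasts.

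Nfatc3 and Nfatc4 stayed near the shift at their brightest probe sets. Nfatc3, a factor shared by many tissues, gave 382 and 269 at 1419976_s_at (-0.07) and 182 and 149 at 1452497_a_at (0.15), both within 1 SD of probe sets. As deposited both were lower in osteoclasts, by -0.51 and -0.29. Nfatc4 gave 77.6 and 62.5 at 1423380_s_at (0.12, but -0.31 as deposited). Its probe set 1454369_a_at was measured in osteoclasts only, with 5.02 against 27.1; this counted as 2-fold higher at the floor (1.10), but 27.1 is under the macrophage background level of 28.2, so no increase is shown. The last Nfatc4 probe sets, 1432821_at and 1423379_at, were below the floor in both arrays.

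Nfat5 was the second member that was higher in osteoclasts. Probe set 1438999_a_at gave 82.1 in macrophages and 187 in osteoclasts (1.62, or 3.07-fold), and 1439328_at gave 29.2 and 51.4 (1.25). Probe set 1439805_at was below the floor in macrophages (14.2) and gave 122 in osteoclasts, at least 5.82-fold higher. These 3 probe sets passed 2-fold relative to the shift, and 1439328_at did not as deposited (0.82). Probe set 1448966_a_at gave 11.8 and 24.0, under the receptor level in both arrays, and 1451921_a_at and 1426029_a_at were below the floor in both. Nfat5 ranked 308th from the highest among the measured genes.

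**Figure D2:**
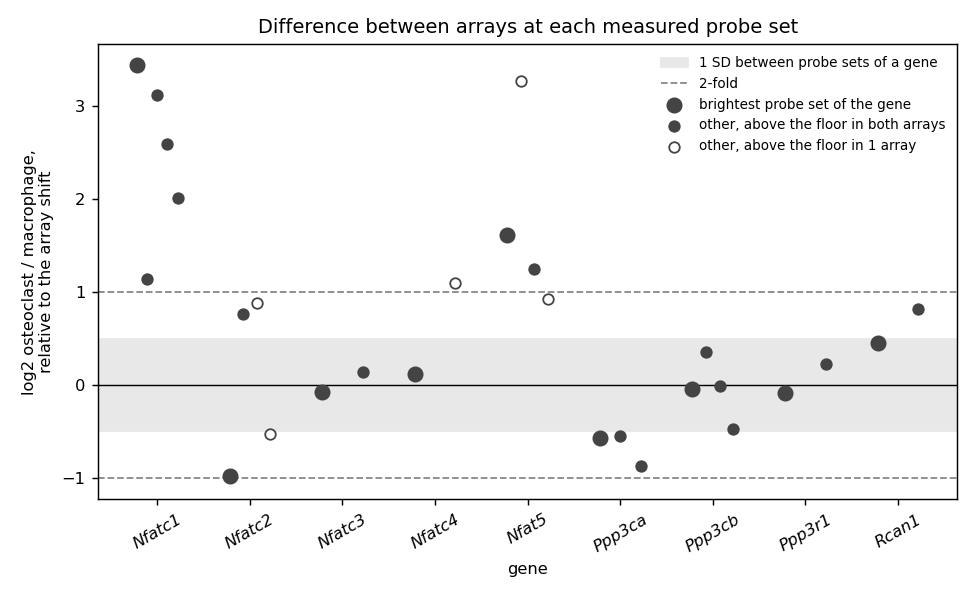
Log2 osteoclast over macrophage, relative to the array shift of -0.43, at each probe set above the floor in at least 1 array; the grey band is 1 SD (0.49) among probe sets of a gene and dashed lines mark 2-fold. Nfatc1 and Nfat5 stand above the upper line at their brightest probe sets (large points, 3.44 and 1.62), and the 3 Ppp3ca points lie together below the band.

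The calcineurin subunits differed by less than 2-fold. Over the 9 measured probe sets of Ppp3ca, Ppp3cb and Ppp3r1 the median was -0.08 and none was 2-fold apart relative to the shift. All 9 were below 0 as deposited and 7 were below the shift. Ppp3ca, the A-alpha catalytic subunit, was lower in osteoclasts at all 3 of its probe sets. These gave 941 in macrophages and 471 in osteoclasts (1426401_at, -0.56), 552 and 280 (1452056_s_at, -0.55) and 482 and 196 (1438478_a_at, -0.86), with an SD of 0.18 among them. Each of these differences is larger than 1 SD between probe sets (0.49) and under 2-fold; as deposited 1438478_a_at passed 2-fold (-1.30) and the others did not. The probe sets 1426401_at and 1452056_s_at share a source sequence, so they are not independent readings. Ppp3ca ranked 11242nd from the highest among the 13647 measured genes.

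Ppp3cb, the A-beta catalytic subunit, stayed within 1 SD of the shift at each measured probe set. It gave 755 and 545 at 1428473_at (-0.04), 334 and 316 at 1433835_at (0.35), 285 and 210 at 1427468_at (-0.0033) and 66.2 and 35.5 at 1428474_at (-0.47), and its last probe set was below the floor in both arrays. Ppp3r1, the regulatory B subunit that both catalytic forms need, gave 1091 and 762 at 1433591_at (-0.08) and 63.4 and 55.1 at 1421786_at (0.23). The signs of Ppp3cb and Ppp3r1 thus differ between their probe sets relative to the shift, and all are below 0 as deposited.

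Rcan1, the calcineurin-binding regulator, differed by less than 2-fold. It gave 422 in macrophages and 427 in osteoclasts at 1416600_a_at (0.45) and 138 and 181 at 1416601_a_at (0.82). The first difference is within 1 SD between probe sets (0.49) and the second is larger than it. As deposited the first was almost equal in both arrays (0.02) and the second was 0.39. Both probe sets come from the same source sequence and are of the kind that reads several transcript forms of a gene together, so the 2 starts of Rcan1 cannot be told apart here. The gene lies on the minus strand of chromosome 16 (92391951 to 92466169 in GRCm38.p6). Its outer start makes the longer form, and its internal start, inside the gene, makes the shorter form that calcineurin and NFAT are known to induce. The 250 bases before each start, from the RefSeq table of that build, were searched for the NFAT core GGAAA on both strands (TTTCC where the core lies on the opposite strand; matches may overlap). They are shown because these starts differ in that core, with matches in capitals.
Rcan1 internal start, chr16:92400079-92400328, minus strand: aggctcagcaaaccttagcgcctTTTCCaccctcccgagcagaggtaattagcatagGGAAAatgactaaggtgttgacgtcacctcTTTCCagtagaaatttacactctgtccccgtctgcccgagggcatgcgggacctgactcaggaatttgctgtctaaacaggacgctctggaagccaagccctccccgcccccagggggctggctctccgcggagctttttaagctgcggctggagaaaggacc
Rcan1 outer start, chr16:92466170-92466419, minus strand: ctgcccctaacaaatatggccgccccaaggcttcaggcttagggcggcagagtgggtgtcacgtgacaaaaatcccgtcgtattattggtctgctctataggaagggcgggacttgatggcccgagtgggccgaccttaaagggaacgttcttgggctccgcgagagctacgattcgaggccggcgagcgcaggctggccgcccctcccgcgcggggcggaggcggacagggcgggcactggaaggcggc
The internal window held 3 matches and the outer window 0. The core is short and common: 55.6% of 32851 such windows held at least 1 match and 6.39% held at least 3. Among the windows read for 7 of the 9 genes, which do not include Nfatc1 or Ppp3ca, 7 of 10 held a match. A match is only a match of letters and not a bound site.

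**Figure D3:**
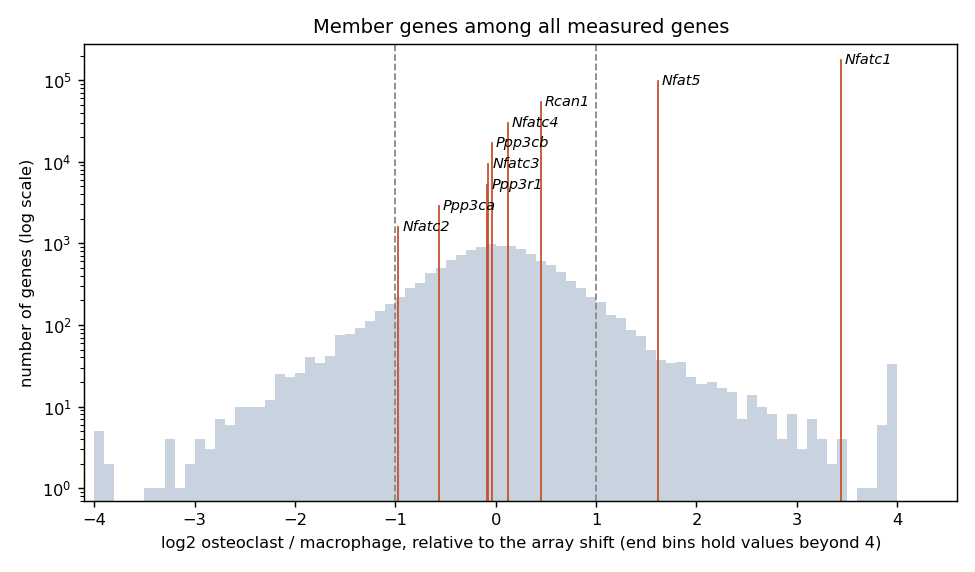
Number of genes (log axis) by log2 osteoclast over macrophage relative to the array shift, for the 13647 measured genes, with each of the 9 genes marked at its brightest probe set (the height of a mark carries no value) and dashed lines at 2-fold. Nfatc1 (3.44) and Nfat5 (1.62) lie in the upper tail, Nfatc2 (-0.97) at the edge of the lower one, and the others inside.

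The RNAs of proteins that carry the signal to calcineurin were mostly within 2-fold of the shift, as were 11723 of all 13647 measured genes. Across all measured genes, 7.11% passed 2-fold upward and 6.99% downward, or 3.0% and 17.5% as deposited. These shares stand beside the counts of each list below. Of the 11 genes from the ITAM adaptors to phospholipase C, 1 was 2-fold higher, 1 was 2-fold lower (1 and 2 as deposited) and the median was -0.23. The higher one was Oscar, an osteoclast receptor that pairs with the Fc receptor gamma chain, with 25.0 and 628 (at least 30.1-fold). The lower one was Trem2, a receptor that pairs with Tyrobp, with 4201 and 685 (-2.18), while its second probe set was under the background level in both arrays. Fcer1g, the gene of the gamma chain, gave 7412 and 2875 (-0.93), and passed 2-fold as deposited (-1.37). Syk, the kinase that the adaptors recruit, gave 619 and 814 (0.83), with its other bright probe sets at 0.93 and 1.03. Plcg2, the phospholipase that releases the calcium-mobilising messenger, gave 954 and 602 (-0.23).

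Genes of calcium release and entry had a median of -0.29 over 12 genes, with 1 higher and 2 lower (0 and 3 as deposited). Stim1, the sensor of calcium in the endoplasmic reticulum, gave 235 in macrophages and 71.3 in osteoclasts (-1.29) and at its other probe set 154 and 25.7 (-2.15). Trpv4, a cation channel, gave 75.5 and 16.8, at least 2.17-fold lower. Orai2, a pore subunit of store-operated entry, gave 123 and 192 (1.08) and 86.1 and 126 (0.99), but 0.65 as deposited at the first. The main pore gene Orai1 gave 450 and 249 (-0.42), and the second sensor Stim2 gave 422 and 227 (-0.46). The third pore gene Orai3 gave 244 and 155 (-0.23). Within store-operated entry, the sensor Stim1 was thus lower and only the pore gene Orai2 was higher, under 2-fold as deposited.

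Other calcineurin subunits and regulators had a median of -0.20 over 5 measured of 7 genes with a probe set. The 1 counted as higher was Rcan2, a relative of Rcan1, with 10.1 and 26.8; the latter is under the macrophage background level of 28.2, so no increase is shown. The third catalytic subunit Ppp3cc gave 70.7 and 45.4 (-0.20), and Rcan3 gave 179 and 112 (-0.24). Fkbp1a, the binding protein of the calcineurin inhibitor tacrolimus, gave 3491 and 2212 (-0.23). Among 11 kinases and scaffolds that send NFAT back to the cytoplasm or hold it there, 1 was 2-fold higher, none lower (0 and 0 as deposited), and the median was -0.18. The higher one, the NFAT kinase Dyrk2, gave 413 and 660 (1.11), with its other measured probe sets at 0.64 and 0.76. Gsk3b, which phosphorylates nuclear NFAT for export, gave 694 and 358 at its brightest probe set (-0.52). Its dim probe sets 1439931_at and 1439949_at gave 1.35 and 1.84, and its remaining ones lay between -0.38 and 0.00.

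The lists of regulators and partners of Nfatc1 went both ways. Of 18 inducers and partners, 6 were 2-fold higher and 1 was lower (4 and 2 as deposited), with a median of 0.54. The largest differences were in the coactivator gene Ppargc1b (49.0 and 625, 4.10), the AP-1 relative Jdp2 (265 and 3347, 4.09) and Fosl2 (430 and 1665, 2.39). At its second probe set Fosl2 gave 49.6 and 83.0 (1.18), under 2-fold as deposited (0.74). The second Jdp2 probe set gave 11.6, below the floor, and 53.5. Fos itself, the AP-1 subunit that RANKL needs to start Nfatc1, gave 3406 and 3769 (0.58). The 1 lower gene was Camk4, a calmodulin-dependent kinase, with 41.8 against 11.3, at least 1.20-fold lower. All 5 repressors with a probe set were 2-fold lower on both scales, with a median of -1.97: the largest were Id1 (1770 and 192, -2.77), Bcl6 (828 and 147, -2.07) and Irf8 (934 and 177, -1.97). These lists were drawn up with such values already known, and their direction is not independent evidence.

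Genes known as NFATc1 targets in osteoclasts were all far higher. Oscar, described above, is one of them. Each of the 13 was at least 2-fold higher on both scales, the median was at least 4.91 with signals under the background level raised to it, and the smallest difference was 2.40 in Prdm1, a repressor of anti-osteoclast genes. Mmp9, a gelatinase, gave 30.4 and 8767 (8.61), Car2, carbonic anhydrase 2, gave 23.7 and 2415 (at least 116-fold), and Acp5, the tartrate-resistant phosphatase, gave 104 and 8167 (6.72). The list holds the very markers that define the cell, so its count describes the arrays and is no test of NFATc1 activity. The window before the start of Oscar, a target on chromosome 7, is shown as the one among those found for 7 of the 13 genes that held the most matches to GGAAA or TTTCC.
Oscar, chr7:3616158-3616407, minus strand: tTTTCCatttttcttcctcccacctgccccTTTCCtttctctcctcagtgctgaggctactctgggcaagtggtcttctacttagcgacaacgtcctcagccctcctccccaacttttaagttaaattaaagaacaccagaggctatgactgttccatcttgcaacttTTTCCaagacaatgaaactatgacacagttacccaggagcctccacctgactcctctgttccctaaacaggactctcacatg
It held 3 matches, in capitals. Over the target list 6 of 11 windows held at least 1 match (54.5%), close to the 55.6% of all windows.

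Targets of Nfat5 in the salt stress response were mixed. Of 7 measured genes, 3 were 2-fold higher and none lower (2 and 0 as deposited), and the median was 0.76. Slc5a3, the myo-inositol transporter, gave 188 in macrophages and 570 in osteoclasts (2.03) and 47.0 and 136 at its second probe set (1.97). Slc6a12, the betaine transporter, was below the floor in macrophages (5.09) and gave 51.7 in osteoclasts, at least 2.47-fold higher. Hspa4l, an osmotic stress chaperone, gave 178 and 282 (1.10), with its other probe sets from 0.37 to 0.96. Slc6a6, the taurine transporter, was not higher, with 3336 and 2224 (-0.15) and its other probe sets between -0.73 and -0.69. Transporters for different osmolytes therefore did not share 1 direction.

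**Figure D4:**
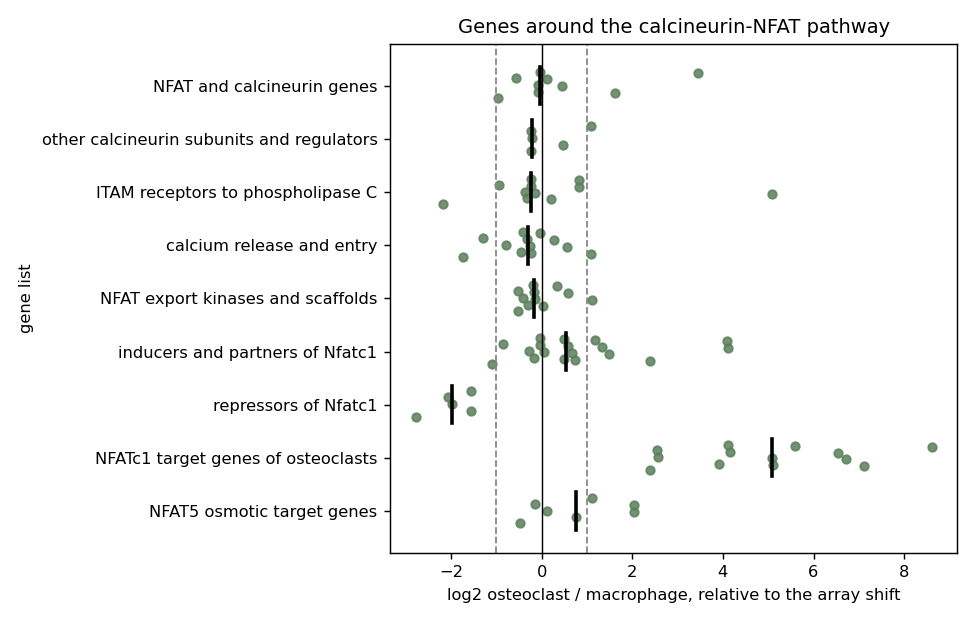
Log2 osteoclast over macrophage relative to the array shift for each measured gene of the 9 genes and of 8 lists around the pathway; black bars are list medians and dashed lines mark 2-fold. The medians of the upstream lists lie between -0.29 and -0.18, the repressors at -1.97 and the osteoclast targets at 5.08, which is 4.91 once signals under the background level are raised to it.

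Markers of other cells were read beside these values. Granulocyte markers were higher in the osteoclast array, 7 of 8 at least 2-fold (4 as deposited), with a summed intensity of 3227 in macrophages and 6057 in osteoclasts. Mpo gave 36.2 and 89.3, while Prtn3 (22.2 and 63.5) and Elane (4.24 and 45.6) were under the background level in macrophages. Stromal and osteoblast markers summed to 12691 and 7307, with 2 of 8 higher (Col3a1, and Dcn at least 1.77-fold) and none 2-fold lower (1 and 2 as deposited), and Col1a2 gave 5744 and 2895, so collagen genes were bright in both arrays. B cell markers summed to 140 and 72.4, with 3 of 5 measured and 1 lower (Cd79b, at least 1.86-fold); Cd79a and Ms4a1 were below the floor in both arrays. Mast cell markers summed to 44.3 and 56.4, with 2 of 6 measured, Cpa3 (25.8 and 9.82) and Kit (1.37 and 21.9), both under the receptor level. The part of these cells, and of T cells, in the NFAT and calcineurin values was not tested.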

How the data were processed

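RNA of 1 macrophage and 1 osteoclast culture was hybridised to Affymetrix arrays from 1 µg of total RNA, per the labels' protocols. The deposited table holds a linear intensity per probe set; how probes were summarised, corrected for background and scaled is not given in the sources used. Of 45101 probe sets, 64 controls were left out. In the platform annotation, which can be old, 932 had several symbols and 9160 had none. These entered the floor and the shift but were not read for any gene or count. The Entrez identifiers of all 9 genes carried the same symbol in RefSeq (GRCm38.p6). Signals below the floor were raised to it, log2 differences were taken, and the median shift of 23708 probe sets measured in both arrays was subtracted. For a gene with several probe sets the one brightest on average over both arrays stood for it, and every probe set of the 9 genes is reported. Genes of the other lists were named by size: up to 3 in each direction past 2-fold, or up to 2 of the brightest, and further genes were named for their role after their values were seen. No test was possible with 1 array per group. The members and lists were chosen with earlier results of these data known. The number of arrays limits the precision. The steps were tested on simulated data, in which only bright genes were changed and probe sets of a gene disagreed less than here. That test does not check the calls of dim genes. Python 3.11.15, pandas 2.3.3, numpy 2.4.6, scipy 1.17.1 and statsmodels 0.14.6 were used.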

Additional observations from a re-analysis of the deposited data

How the results depend on the processing

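With 1 array per group no replicate could be left out. No paired analysis was possible because each group holds 1 array. The 9 settings other than the main one were no shift, quantile normalization, trimmed mean scaling, no floor, a floor at the receptor level, a pseudocount of 16, the median over probe sets, plain _at probe sets only and, chosen after seeing the data, an intensity-dependent shift. Nfatc1 and Nfat5 were the 2 genes past 2-fold upward in all of them, at 2.59 to 3.50 and, for Nfat5, 1.18 to 1.70, apart from plain _at probe sets only, where its 3.27 is set by the floor and stands for at least 5.82-fold. Ppp3ca was below 0 in all of them (-1.0 to -0.52). The count of genes 2-fold lower was 0 except without the shift, where it was 1 (Nfatc2), and the lower probe sets then numbered 2. Without a floor 16 probe sets were higher and 1 was lower, since signals near 0 then count. With plain _at probe sets only, 5 were higher among fewer read. Nfatc2 turned from -0.97 to 0.12 with the median over its 4 measured probe sets, which takes in signals under the receptor level. Why these probe sets disagree was not tested. Nfatc3, Nfatc4, Ppp3cb and Ppp3r1 lay between -0.52 and 0.61 and each took both signs. Nfatc3, Nfatc4 and Rcan1 had no measured plain _at probe set. In 12 probe sets of the 9 genes at least 1 signal was under the receptor background level, so their differences are bounds at most. Where both signals were under it, no bound can be given.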

Other observations

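Probe set 1450368_a_at carries the symbols of Ppp3r1 and Wdr92 and was left out of the counts. It gave 93.5 in macrophages and 57.1 in osteoclasts, a difference of -0.28 relative to the shift.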
